A study of Mus musculus with 4 samples.

Results

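This account covers dexamethasone alone against no hormone in 7438 cells, which is 2 of the 4 DNase-seq libraries of the series. The cells are mouse mammary cells that carry a glucocorticoid receptor fused to GFP (GFP-GR) and an estrogen receptor fused to Cherry (Cherry-ER), both under a tetracycline-regulated promoter. All groups therefore contained both tagged receptors, including the untreated one. Cells of every group were in medium with charcoal-dextran serum, and tetracycline had been absent for 24 h. The Dex group then received 100 nM dexamethasone, a synthetic glucocorticoid, for 30 min, and the untreated group received no hormone. The libraries with estradiol (E2, 100 nM) and with both hormones (Dex+E2, 100 nM each, 30 min) took no part in the comparison. They were read at the same regions, and were also compared with each other over the regions that their own lists share. Each condition had 1 library, so that all values describe libraries, and an effect of the hormone and a difference between 2 preparations cannot be told apart.

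The members were chosen by overlap. A Dex region that shared no base pair with an untreated region was called gained, an untreated region that shared none with a Dex region was called lost, and the rest were called shared. The Dex list held 51251 hypersensitive regions and the untreated list 65879. Of the Dex regions 17662 were gained (34.5%), and of the untreated regions 33634 were lost (51.1%). Between the 51251 densest regions of each list 18911 were gained (36.9%) and 20299 lost (39.6%). With lists of equal length and mostly pairs of 1 region each, these counts must be nearly equal. The reason for the excess of lost regions was not tested. The remaining 33589 Dex and 32245 untreated regions formed 31828 shared groups, of which 29917 paired 1 region of each list.

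The glucocorticoid receptor is a nuclear receptor that waits in the cytoplasm, enters the nucleus when it binds a ligand such as dexamethasone, and attaches to DNA at glucocorticoid response elements and beside other factors such as AP-1. DNase I cuts where nucleosomes are displaced, so hypersensitive regions mark promoters, enhancers and other sites occupied by factors. In mouse mammary cells the receptor is known to bind largely at sites that are accessible before hormone, and to open a smaller number of sites with the help of chromatin remodelling complexes such as SWI/SNF. Absence from a list says that a position did not pass the threshold of the deposited calls, and the enzyme may still have cut there. Positions are those of the deposited mm9 lists, and a shared region is given by the span of both lists. Genes and DNA sequence at the regions were not analysed here. Cell identity was not checked against marker genes for the same reason.

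Density here is the deposited tag density of a region, either its maximum or its average along the region. The value of 1 tag was 0.255 in the untreated and 0.245 in the Dex library. The summit of the median region therefore held 35 tags in the untreated and 32 in the Dex list. Intervals beside maximum densities are exact Poisson intervals at the 95% level on the tags at the summit, those beside shares are Wilson intervals at the same level, and both cover counting error only.

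The 10 densest gained regions were all among the 2188 Dex regions with a density of 40 or more. The first of them, chr4:59348435-59349477, had a maximum density of 114.9 after Dex (104.7 to 125.7) and an average density of 23.9 over 1042 bp. It was not listed in untreated or E2 cells and stood at 80.3 after Dex+E2. The second, chr12:80453017-80454115, had 79.3 after Dex (70.9 to 88.5) and 64.7 after Dex+E2, and was in neither list without Dex. Both were thus in the 2 lists made with Dex and in neither of the others.

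On chromosome 18 a pair of the 10 densest gained regions lay 2.08 kb apart. The region chr18:9485239-9487134 reached 63.7 after Dex and 41.1 after Dex+E2. Its neighbour chr18:9489218-9491064 reached 65.1 with Dex, 4.999 with E2 and 46.7 with both hormones. With widths of 1895 and 1846 bp these were also the widest gained regions, followed by chr15:79564938-79566722 (1784 bp, density 27.7 after Dex). Only 0.280 kb beyond the pair began chr18:9491344-9494839, a shared region that measured 251 bp in untreated cells at a density of 6.12 (3.92 to 9.11) and 3495 bp after Dex at 84.5 (75.8 to 93.9). A further 2 gained regions in the same stretch, chr18:9507173-9508278 and chr18:9508996-9509861, had 35.8 and 34.8 after Dex.

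A similar neighbourhood was seen on chromosome 17, where the gained region chr17:28649115-28650620 (63.9 after Dex, 47.9 after Dex+E2) lay 1.66 kb from the shared region chr17:28652276-28653515. The latter went from 10.7 (7.72 to 14.5) untreated to 63.9 (56.4 to 72.2) after Dex. Neither was listed after E2.

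Of the other gained regions among the 10 densest, chr5:144305495-144306399 had 67.6 with Dex, 13.6 with E2 and 81.7 with both hormones. The region chr8:129331077-129331938 had 54.1 after Dex and 69.9 after Dex+E2, and chr7:148663806-148664945 had 49.2 and 25.2. The nearest untreated regions were 1683, 1158 and 537 bp away from these 3.

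The remaining pair of the 10 had low Z scores for its density. At chr11:3030610-3031188 the density was 74.0 after Dex with a Z score of 11.97, and the E2 and Dex+E2 libraries gave 51.6 and 64.0 there. The shared region beside it, chr11:3031849-3035500, had 69.4 untreated, 86.7 with Dex, 77.8 with E2 and 77.8 with both. At chr2:22507397-22507829 the density was 55.8 with a Z score of 8.24, and the nearest untreated region was 61.2 kb away. That neighbour, chr2:22443358-22446159, was the fourth densest of all shared regions, at 7836 without hormone and 5073 with Dex. For comparison, the Z score at chr4:59348435-59349477 was 112.0, and the median ratio of Z score to maximum density was 1.19 over all 7460 Dex regions of density 20 or more. Of the 145 gained regions of that density, 4 had a Z score under 0.5 of their density, against 53 of the 7460.

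Lost regions reached lower densities. The densest, chr1:24560214-24560767, had 40.8 in untreated cells (34.7 to 47.6), a Z score of 12.1 and no region in any hormone list. It lay 58.6 kb from chr1:24619396-24620156, the fifth densest shared region (5729 without hormone, 2725 with Dex), and chr1:24685085-24685527, a lost region with 38.3 untreated and a Z score of 6.69, lay 64.9 kb beyond that one. The nearest regions of the Dex list were closer, at 43397 and 55150 bp from these lost regions, against a median of 13885.5 bp over all lost regions.

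Several other dense lost regions had higher scores. The region chr1:90158346-90159725 had 40.6 in untreated cells with a Z score of 28.0, 16.6 with E2 and 23.8 with both hormones. On chromosome 10, chr10:85907310-85908580 had 33.4 in untreated cells and 6.999 with E2, and it was not listed with both hormones. The region chr19:9154332-9155078 had 34.2 untreated, 7.60 with E2 and 8.62 with both. At chr8:20032764-20033218 the untreated density of 33.4 lay between 38.4 with E2 and 28.6 with both, and the Z score was again low, at 8.73. Of the 10 densest lost regions 9 were in the E2 list and 6 in the list with both hormones. Among all 15827 untreated regions of density 20 or more, the shares were 95.3% and 98.8%.

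Another dense lost region, chr4:59286089-59286784 (32.6 untreated, 8.40 after E2, not listed after Dex+E2), was 61.7 kb from the top gained one, chr4:59348435-59349477. The widest lost regions were a neighbouring pair 0.262 kb apart, chr13:111190595-111194331 (3736 bp, density 11.2) and chr13:111187622-111190333 (2711 bp, density 9.44), found in untreated cells alone.

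**Figure D1:**
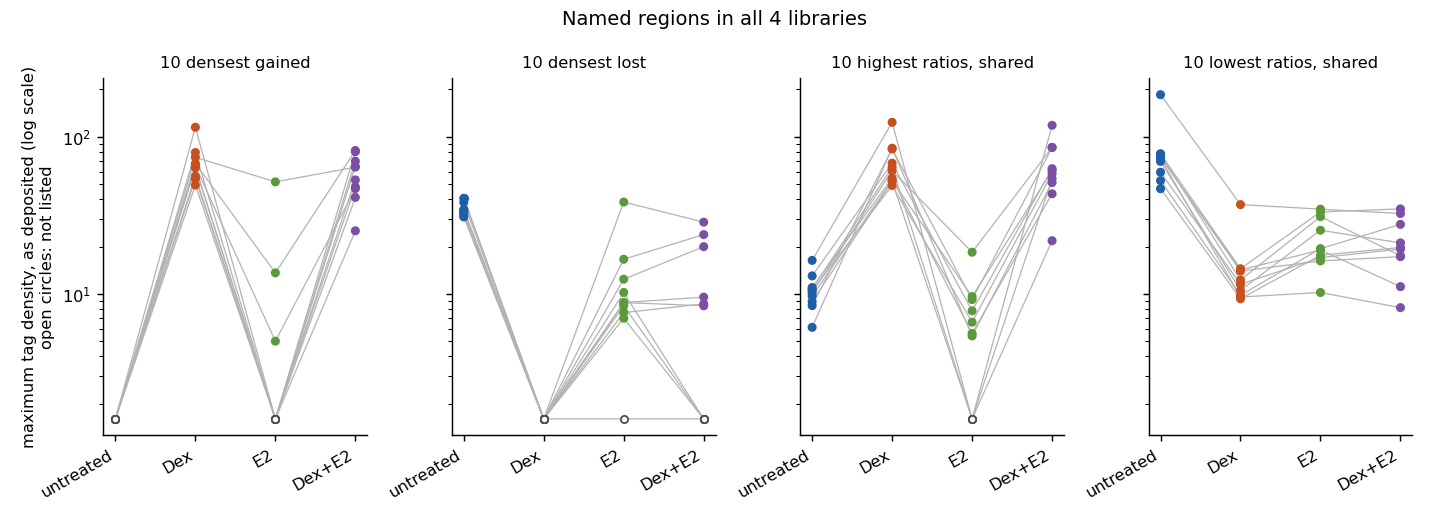
Maximum tag density as deposited (log axis) in the 4 libraries for 4 groups of 10 regions, with 1 line per region and open circles where a region was not listed. The gained regions (49.2 to 114.9 after Dex) were all listed after Dex+E2 and 7 of 10 were missing after E2, while 9 of the 10 lost regions were listed after E2. Of all 2188 Dex regions with a density of 40 or more, 2187 were listed after Dex+E2 and 2136 after E2. Of all 15827 untreated regions with a density of 20 or more, 95.3% were listed after E2.

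Most gained and lost regions were weak and narrow, unlike those named above. The median gained region had a maximum density of 5.39 (quartiles 4.65 and 6.61), an average density of 1.28 and a width of 321 bp, where the shared Dex regions had medians of 10.3, 2.50 and 647 bp. The median lost region had 6.12, 1.53 and 434 bp, against 19.4, 4.50 and 819 bp for shared untreated regions. Regions of the smallest width in the lists, 251 bp, made up 20.2% of gained and 12.6% of lost regions, but 2.68% and 0.819% of the shared Dex and untreated ones. By length, the gained regions held 20.7% of the base pairs of the Dex list, and the lost ones 32.8% of those of the untreated list.

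At the threshold only the 3 regions of each kind with the lowest Z scores were read, and they were weak whether gained, lost or shared. The gained regions with the lowest Z scores were chr6:78237235-78237487 (Z score 5.1773, density 3.67), chr1:192730626-192730877 (5.1774, 7.35) and chr4:141730055-141730316 (5.1775, 4.65). Lost regions at the limit were chr16:94076748-94076999 (4.9485, density 4.59), chr1:177285585-177285836 (4.9486, 4.34) and chr6:133396009-133396260 (4.9486, 5.36). Shared regions just inside it included chr12:83669329-83669741, with a Z score of 4.95 untreated and 5.95 after Dex, and densities of 6.38 and 7.10. The lists start at different Z scores, 4.95 and 5.18, so that a region of the same score could be listed in untreated cells and not after Dex. With both lists taken from the higher of these scores, 17977 were gained and 28740 lost. Of the 19837 Dex regions with a Z score of 10 or more, 1001 had no untreated region (5.05%), and of the 30611 such untreated regions 4476 had no Dex region (14.6%).

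When each list was ordered by maximum density and divided into 10 deciles, the gained share fell from 84.0% (83.0 to 85.0) in the weakest decile of the Dex list to 32.0% in the fifth and 1.502% (1.204 to 1.87) in the densest. The lost share stayed high for longer: it was 92.5% (91.8 to 93.1) in the weakest decile of the untreated list, 69.8% in the fifth, 30.6% in the seventh and 9.30% in the eighth. It then dropped below the gained share, to 0.638% (0.472 to 0.861) in the ninth decile against 3.41% (2.95 to 3.95) for gained regions. In the densest decile 0 of 6587 untreated regions were lost (upper limit 0.0583%), and 77 of 5125 Dex regions were gained. At the strong end of both lists, then, regions missing from the other list were more frequent in the Dex list.

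The same held on the deposited scale. Of the Dex regions with a density of 40 or more, 21 of 2188 were gained (0.960%, 0.629 to 1.46), and of the untreated ones 2 of 7305 were lost (0.0274%, 0.00751 to 0.0998). For densities from 20 to 40 the shares were 2.35% (124 of 5272) and 1.81% (154 of 8522). Below that the order turned, with 7.20% gained and 30.4% lost from 10 to 20, and 41.4% and 76.5% from 5 to 10. Since densities were lower in the Dex library, as given below, a fixed density marks different ranks in the 2 lists, and so do deciles of lists of unequal length. In blocks of equal rank, a choice added after the values were seen, 78 of the 5125 densest Dex regions were gained and 0 of the 5125 densest untreated regions lost, and in the next 5125 of each 176 were gained and 10 lost.

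Width gave a like gradient. Under 400 bp 71.3% of Dex regions were gained and 91.1% of untreated regions lost, and from 600 to 1000 bp the shares were 7.39% and 24.8%. At 1500 bp or more they were 0.412% (7 of 1701) and 0.750% (26 of 3465). Within a density class width still mattered. Among Dex regions with a density from 5 to 10, 62.5% of those under 400 bp, 33.4% of those from 400 to 600 bp and 11.6% of those from 600 to 1000 bp were gained. In the untreated list the same 3 classes gave 88.6%, 76.3% and 57.3% lost.

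**Figure D2:**
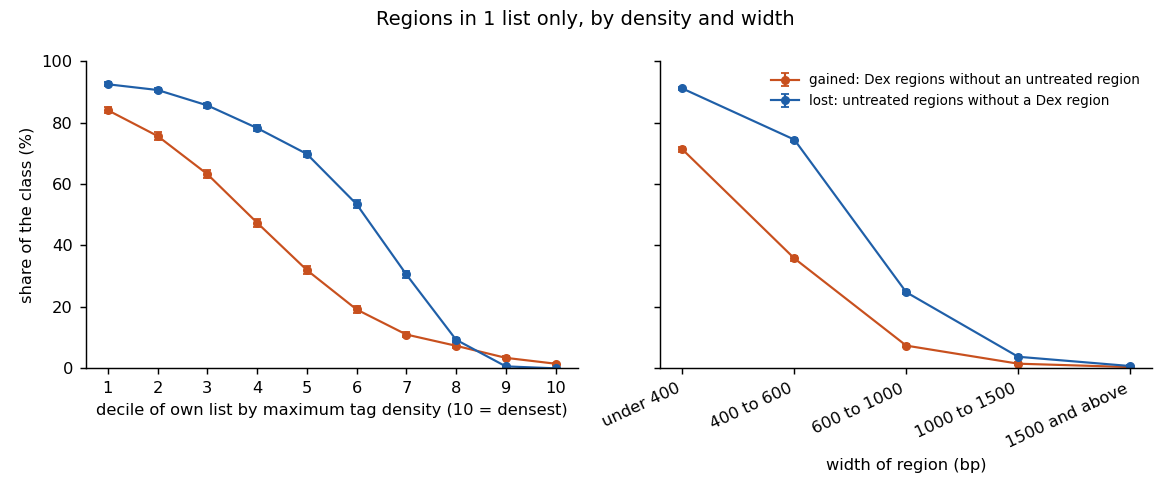
Share of regions found in 1 list only, by decile of the list's own maximum density (left) and by width in bp (right), with Wilson 95% intervals as bars. The lost share (blue) lay above the gained share (orange) up to the eighth decile, at 9.30% against 7.34%, and below it in the densest 2 deciles.

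By chromosome, the gained share ran from 24.96% on chromosome 11 to 48.4% on chromosome X, and the lost share from 44.8% to 62.6% on the same chromosomes. Gained regions lay a median of 14.5 kb from the nearest untreated region, and 41.7% had one within 10 kb. Among gained regions of density 20 or more the share within 10 kb was 71.7% (104 of 145), close to the 71.9% of shared Dex regions of that density, for which the nearest untreated region that did not overlap was taken. Dense gained regions thus lay about as near to other untreated regions as dense regions present in both lists.

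In the other libraries, which the choice of members did not use, weak gained regions were rarely listed, and dense ones were often listed with both hormones but rarely with E2 alone. Of all 17662 gained regions the Dex+E2 list held 13.9% and the E2 list 4.801%, where of all Dex regions they held 58.7% and 44.6%. These shares are not matched for density, whose median was 5.39 in gained and 7.84 in all Dex regions. Among the 952 gained regions with a density of 10 or more, 81.8% (79.3 to 84.1) had a Dex+E2 region and 11.7% (9.77 to 13.9) an E2 region. All Dex regions of that density gave 97.2% and 84.4%. At 20 or more, 145 of 145 were listed after Dex+E2 and 16 after E2. Of all 7460 Dex regions of that density, 7459 were listed after Dex+E2 and 95.4% after E2. The share listed after Dex+E2 was thus that of dense Dex regions in general. In the 145 the median density was 26.2 after Dex and 20.2 after Dex+E2.

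Dense lost regions were in the E2 list more often than dense gained ones. Of the 156 with a density of 20 or more, 101 were listed after E2 (64.7%, 57.0 to 71.8) and 115 after Dex+E2 (73.7%, 66.3 to 80.0), and among all 15827 untreated regions of that density 95.3% and 98.8% were. Where they were listed, their median density was 8.20 after E2 and 9.98 after Dex+E2, a median log2 ratio to their untreated density of −1.54 and −1.13. All untreated regions of that density had −1.69 and −1.06 where listed. Only listed regions enter these ratios, and a larger share of the lost regions than of the whole list was unlisted. The closeness of the ratios therefore does not cover the unlisted regions.

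Shared regions were less dense after Dex as deposited. Their median maximum density was 19.6 untreated and 10.8 after Dex, a ratio of 0.549, and their median average density 4.55 and 2.54, a ratio of 0.559. Region by region, the median log2 ratio of the maximum density was −0.88 (quartiles −1.19 and −0.42) and that of the average density −0.86. The maximum was higher after Dex at 3499 regions (10.99%). Changes of single regions are given below relative to these library medians, so that a relative ratio of 1 stands for 0.549 of the untreated maximum density. By that measure, 2462 regions were higher by 2-fold or more (7.74%) and 398 lower by as much (1.25%). At a 1.5-fold limit the counts were 6255 (19.7%) and 3075 (9.66%), at 4-fold 274 (0.861%) and 2 (0.00628%), and at 8-fold 35 (0.11%) and 0. The 2-fold counts and their split rest on the scaling: they were 347 higher and 12966 lower on the deposited scale, and 4339 and 100 with the medians of the 1000 densest regions. The average density gave 2400 and 703.

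**Figure D3:**
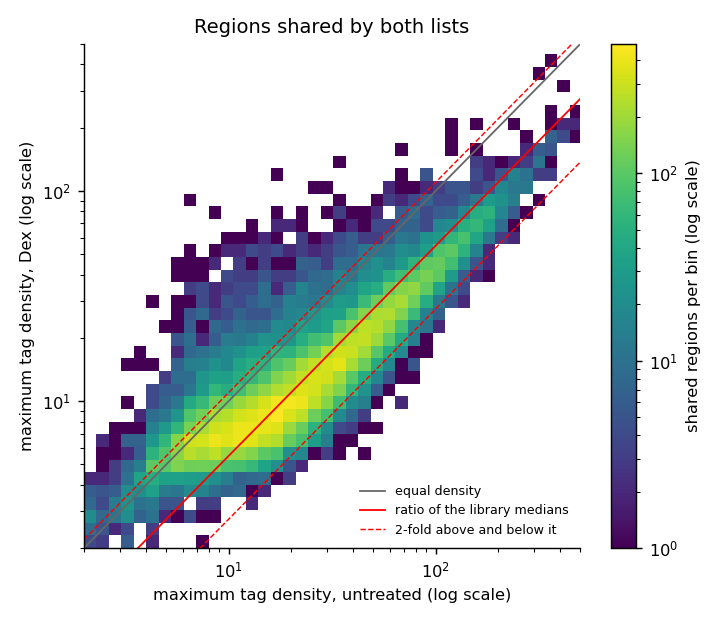
Maximum tag density of the shared regions in the untreated (x) and Dex library (y), both on log axes drawn from 2 to 500 (denser regions lie outside), with colour for the number of regions per bin. Most regions lay below the line of equal density. The upper dashed line marks a 2-fold relative increase, and 2462 regions (7.74%) lay on or above it.

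Shared regions were also narrower after Dex. Their median width was 827 bp untreated and 667 bp after Dex, and 25797 of them (81.1%) were narrower. In 60.4% of the pairs the Dex region lay wholly inside the untreated one, and in 8.19% the reverse was true. The midpoints of the pairs lay a median of 50.5 bp apart. A single untreated region was matched by 2 or more Dex regions in 1520 groups, and a single Dex region by 2 or more untreated ones in 264.

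The ratio depended on density. In the weakest decile of shared regions by geometric mean density the medians were 6.12 untreated and 5.39 after Dex, a median deposited ratio of 0.923. In the fifth decile they were 18.1 and 9.55 (0.529), and in the densest 95.6 and 45.3 (0.457). Relative to the library medians the log2 ratio of the maximum went from 0.75 (quartiles 0.49 and 0.99) in the weakest decile to −0.27 (−0.45 and −0.05) in the densest. The average density gave 0.67 and −0.33. The quartiles narrowed as well, from 0.65 apart in the second decile to 0.39 in the densest. A shared region had to pass the threshold in both libraries, which limits how low the weakest deciles can go, and its part in the gradient was not tested.

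Sorting the regions by the density in the E2 library, which has no part in the ratio, gave a flatter gradient over the 21551 regions listed there. The median was 0.13 in the weakest and −0.30 in the densest decile. With deciles by the Dex density it was 0.37 and −0.18, and by the untreated density 0.90 and −0.33. The direction was the same in all 4 orders, and its size depended on the order.

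The Dex+E2 and E2 libraries, deposited in the same form, had the reverse slope. There the library with Dex was the denser one, with a median log2 ratio of 0.52 over 24987 shared regions, and the relative log2 ratio was −0.47 in the weakest and 0.09 in the densest decile. In both pairs the deposited ratio lay nearest to 1 in the weakest decile. Widths went with density in this pair too: 78.7% of the regions were wider in the Dex+E2 list than in the E2 list.

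**Figure D4:**
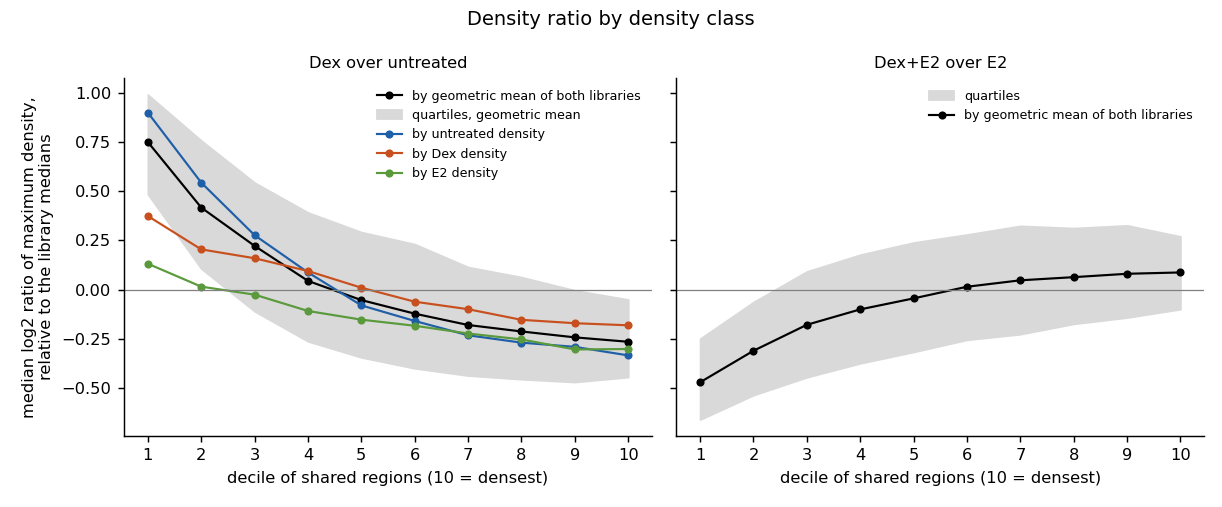
Median log2 ratio of maximum density relative to the library medians in deciles of shared regions, for Dex over untreated (left, with 4 ways of ordering the regions) and Dex+E2 over E2 (right); grey bands are quartiles. The left curves fall with density, from 0.75 to −0.27 for the geometric mean, and the right curve rises from −0.47 to 0.09.

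By the mean width of both libraries, narrow regions had the higher ratios. Regions under 400 bp had a median relative log2 ratio of 0.81, those from 400 to 600 bp 0.33, those from 600 to 1000 bp −0.10, those from 1000 to 1500 bp −0.19 and those of 1500 bp or more −0.16. By the E2 width, which has no part in the ratio, the 5 medians were 0.14, −0.09, −0.25, −0.21 and 0.06, and the widest class (283 regions) lay close to the narrowest. With density held between 10 and 20, the medians were −0.06, −0.07, −0.07 and −0.01 in the 4 classes from 400 bp up. The average density in those classes gave −0.11, −0.05, 0.04 and 0.08. From 400 bp up, the median of the maximum thus changed little with width in this density range, while 33 regions under 400 bp had a median of 0.71. At densities of 40 or more the wider regions kept more of it, with −0.33 from 600 to 1000 bp, −0.28 from 1000 to 1500 bp and −0.20 at 1500 bp or more.

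By geometric mean density, regions at least 2-fold higher made up 24.1% of the weakest decile (767 regions) and 2.39% of the densest (76). By E2 density the shares were 11.8% and 2.32%, and by Dex density 10.7% and 9.30%, so that the contrast depended on the order. Among the 11017 regions with a geometric mean density of 20 or more, whose median relative log2 ratio was −0.22 up to a density of 40 and −0.27 above it, 406 were 2-fold higher or more (3.69%) and 200 lower by that much (1.82%). For a 4-fold limit the counts were 86 (0.781%) and 1 (0.00908%), and for 8-fold they were 15 (0.136%) and 0. At 1.5-fold the order was the reverse, with 800 higher (7.26%) and 1576 lower (14.3%). The ratios thus had a long upper tail, made up of few regions.

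The tail was led by chr18:9491344-9494839 (above), which was 25.2-fold higher relative to the medians and 6.28-fold higher in Dex+E2 over E2. At chr7:117926276-117927217 the density was 8.42 untreated (5.79 to 11.8), 83.5 with Dex (74.9 to 92.9), 9.20 with E2 and 85.3 with both hormones, and the region widened from 286 to 941 bp. Both untreated values were near those of weak regions. Their intervals lay far below those after Dex, which follows from choosing the regions by this ratio.

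The region with the highest Dex density of these 10 was chr4:64255804-64256867, with 16.3 untreated (12.6 to 20.8), 123.4 after Dex (112.9 to 134.7) and 118.2 after Dex+E2, and no E2 region. At chr5:35978307-35979381 the density was 10.2 without hormone, 60.7 with Dex, 18.4 with E2 and 85.5 with both. The region chr19:27410819-27411781 had 8.93 untreated, 51.9 after Dex and 21.8 after Dex+E2. It was the one of the 10 whose Dex+E2 value was lowest in proportion to its Dex value.

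Each of these 10 regions, chosen for high ratios, was wider after Dex than in untreated cells. Of all 11017 dense shared regions 18.1% were. The rest of them were chr3:94717413-94718266 (9.90-fold), chr11:11744176-11745160 (9.50-fold), chr14:70730894-70732015 (9.03-fold) and chr12:76404933-76406074 (8.54-fold). In Dex+E2 over E2 these 4 were 4.23-fold, 5.34-fold, 5.14-fold and 5.87-fold higher.

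Lower regions had smaller ratios. At chr9:116127528-116128687, the only dense region past 4-fold, the density was 72.9 untreated (64.7 to 81.9), 9.55 with Dex (6.79 to 13.1), 10.2 with E2 and 8.17 with both hormones. Another of the 10 lowest, chr9:116292105-116293921, lay 163.4 kb away and had 185.2, 37.0, 34.6 and 32.4 in the same order. At both sites the 3 hormone libraries gave like values as deposited, all below the untreated one. Lower deposited values were general at dense regions. Untreated regions of density 40 or more had median log2 ratios of −1.75 for E2 and −1.08 for Dex+E2 where listed. Shared regions with a geometric mean of 40 or more had −1.13 for Dex. The chr9 regions, chosen for low ratios, lay further down, with −2.93 and −2.32 for Dex as deposited. Relative to the medians they were 0.532-fold and 0.623-fold in Dex+E2 over E2, so lower with Dex in that pair too.

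At chr5:13974396-13975197 the density was 69.6 without hormone, 10.5 with Dex, 25.4 with E2 and 21.1 with both. The region chr15:33573136-33574621 had 77.5, 12.2, 31.0 and 17.5, and chr7:138121024-138121975 had 77.8, 14.4, 33.2 and 34.7. In these the Dex library was the lowest of the 4. In all 10 the Dex region was narrower than the untreated one, as it was at 81.1% of all shared regions. At 9 of the 10 the E2 density exceeded the Dex density. The 10 were chosen for low Dex values against the untreated ones, which favours a Dex value below the other libraries.

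The Dex+E2 and E2 libraries share no library with the comparison and were read at the dense shared regions. Of the 406 higher regions 342 were listed in both, and their median log2 ratio of Dex+E2 over E2, relative to those libraries' medians, was 1.11 (quartiles 0.76 and 1.49). Of them 195 (57.0%) were at least 2-fold higher there too, where 2.63% of all 10880 dense shared regions in both lists were. For the 86 regions past 4-fold, 49 were in both lists and 45 of these were 2-fold higher. The 64 higher regions missing from the E2 list had medians of 15.9 untreated, 38.1 after Dex and 29.3 after Dex+E2.

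The 200 lower regions were in both lists throughout, with a median of −0.41 (−0.58 and −0.20), and 8 of them were 2-fold lower there, where 0.257% of all dense shared regions were. Regions that were neither higher nor lower had a median of 0.07. Width went with the direction: 329 of the 406 higher regions (81.0%) were wider after Dex, against 18.1% of all 11017, and 2 of the 200 lower ones. The width of a called region depends on its height, and the groups were chosen by height. Width is therefore not a separate observation here.

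**Figure D5:**
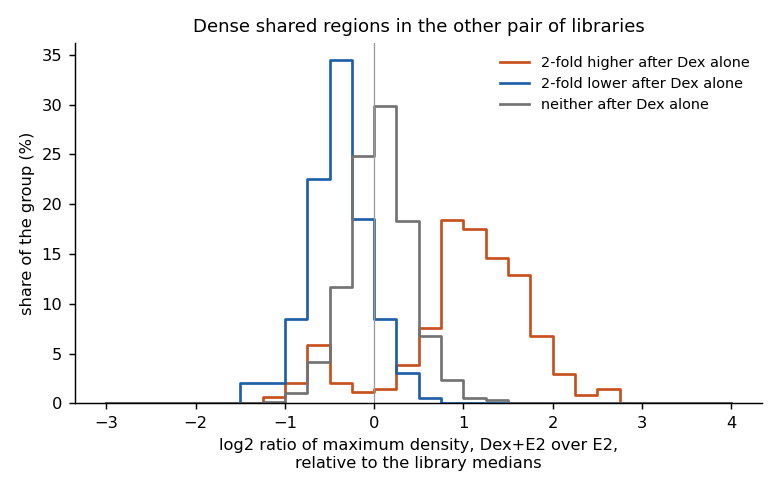
Log2 ratio of maximum density in Dex+E2 over E2, relative to the library medians, for dense shared regions that were 2-fold higher (orange), 2-fold lower (blue) or neither (grey) in Dex over untreated, as a share of each group. The medians were 1.11, −0.41 and 0.07, and the orange curve has a small second rise below 0.

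That second rise held 40 of the 342 higher regions with a ratio of 1 or less in Dex+E2 over E2. Medians for these were 27.5 without hormone, 35.8 with Dex, 34.3 with E2 and 35.6 with both, and 18 of the 40 lay on chromosome 8 between positions 19687029 and 19963426. As deposited they were a median of 1.25-fold higher after Dex. The other 302 had medians of 24.2, 40.2, 9.60 and 36.6. Counts of higher regions relative to the medians thus include regions whose deposited density was nearly the same in every library.

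Dense gained regions and dense higher regions were also grouped by position. Together they numbered 551, and when those within 20 kb of each other were joined, a limit chosen after the values were seen, they fell into 500 stretches, 472 of them with a single region. The 28 stretches with 2 or more held 79 regions, and 15 of these stretches mixed gained and shared ones. No such share was taken over other dense regions, so that these counts cannot be read as scatter or as clustering. The chromosome 18 stretch had 5 regions. One on chromosome 2 had 4 shared regions, with the highest ratios at chr2:152610975-152612330 (16.1 untreated, 68.6 after Dex) and chr2:152645642-152647130 (14.3 and 57.8), and the largest, with 12, lay on chromosome 8 around the positions named above.

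The 5 densest shared regions had densities of a different order. At chr13:85266243-85267370 the maximum was 15878 untreated and 7501 with Dex, at chr12:98299509-98300268 it was 10256 and 4687, and at chr4:79648971-79649755 it was 9402 and 4516. These 3 had relative log2 ratios of −0.22, −0.26 and −0.19, and chr1:24619396-24620156 had −0.21, all near the −0.27 of the densest decile. The exception, chr2:22443358-22446159, had 0.24 for the maximum and −0.16 for the average density. In Dex+E2 over E2 all 5 lay below the 0.09 of that pair's densest decile. The first 3 had −0.53, −0.62 and −0.50 there, the chr1 region −0.41 and the chr2 region −0.33.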

How the data were processed

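DNase-seq libraries of untreated and Dex-treated cells were compared, with the E2 and Dex+E2 libraries read at the same regions. The Dex+E2 and E2 libraries were also compared with each other over their own shared regions. The groups follow the treatment in the labels. The lists are in mm9 and CASAVA 1.8 was used, per the submitters' processing notes. No aligner or region caller is named in the sources used here. The authors deposited the maximum and average density as a signal, scaled to a total that is not stated. Within 0.02 tags, every maximum was a whole number of tags. The deposited Z score served to mark thresholds, and the deposited p-value was not used. If the scaling total was common, the Dex library was 1.04 times as deep as the untreated one.

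Width was end minus start. Regions sharing at least 1 bp were linked into groups, with the highest maximum and the width-weighted average per list. No p-value was computed, since each condition had 1 library. Regions named were the 10 densest gained and lost, the 10 highest and lowest ratios among shared regions with a geometric mean density of at least 20, the 5 densest shared, the 3 widest gained and lost, and the 3 lowest Z scores of each kind. Neighbours of these and the regions of the chromosome 2 stretch were named after their values were seen. Members, classes and rules were chosen with earlier results of these data known. Alternatives covered overlap, threshold, list length, joining within 150 bp, chromosome X, density measure, scaling and class order. Functions were tested on simulated data. Software was Matplotlib 3.10.9, SciPy 1.17.1, pandas 2.3.3 and NumPy 2.4.6 under Python 3.11.15.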

Additional observations from a re-analysis of the deposited data

Results flagged for a closer look

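The densest decile of shared regions moved in opposite directions in the 2 pairs of libraries that differ in Dex, with a median relative log2 ratio of −0.265 for Dex over untreated and 0.09 for Dex+E2 over E2. The region chr2:22443358-22446159, among the 5 densest, did so by maximum density, with 0.239 and −0.33, but by average density its value for Dex over untreated was −0.158. Each pair has 1 library a side, so neither difference was tested.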

How the results depend on the processing

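Without replicates, only the processing could be varied. Gained and lost regions numbered 23704 and 38332 when an overlap of at least 0.5 of both regions was asked for, and their counts stayed within 1.5 times of the main ones under the other overlap rule, an equal lowest Z score, joining within 150 bp and without chromosome X. Asking only about regions with a Z score of at least 10, against the whole other list, left 1001 gained and 4476 lost. Lists of equal length gave 18911 gained and 20299 lost. Scaling decided the counts of 2-fold higher and lower shared regions: 347 and 12966 on the deposited scale, 3764 and 129 with medians over regions in all 4 lists, and 4339 and 100 with the medians of the 1000 densest regions. The average density gave 2400 higher and 703 lower. Without regions whose Z score was under 0.5 of their density, a choice made after seeing the data, there were 2665 higher and 329 lower. The difference between the densest and the weakest decile was −1.016 by geometric mean, −0.556 by Dex density and −0.434 by E2 density, and that between the widest and narrowest class −0.963 by mean width and −0.079 by E2 width. The cause of these changes was not tested. Of the 28 named shared regions, chr2:22443358-22446159 was negative by average density (−0.158) and on the deposited scale (−0.627), and the others kept their sign with average density, the deposited scale and pairs of 1 region each. No paired analysis was possible because each condition had 1 library. The median gained region had 22 tags at its summit, and depth was not varied.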
